A study of Mus musculus with 2 samples.

Results

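Helios+ cells are the thymocytes of the stage 0 iNKT sort that carried at least 2 unique molecular identifiers (UMIs) of Ikzf2, the gene of the Ikaros family factor Helios, and they were compared between T-KO and Ctrl mice. They were therefore chosen by a measured value, the Ikzf2 count, and Ikzf2 itself is given only as a description. A cell also needed at least 1000 genes, at most 5% mitochondrial UMIs, at least 1 UMI of Cd3d, Cd3e or Cd3g, and no UMI of Rag1, Rag2, Arpp21, Cd79a or Lyz2, genes of immature thymocytes, B cells and myeloid cells. These steps kept 800 of the 16179 barcodes in the series, or 58.69% of the 1363 stage 0 cells that met all conditions but the one on Ikzf2. A further 540 stage 0 cells had 2 or more Ikzf2 UMIs and did not meet the conditions on the other genes. T-KO mice were Kidins220 fl/fl LckCre, in which Cre is driven by the proximal Lck promoter from an early double-negative stage on, and Ctrl mice were Kidins220 +/fl or Kidins220 +/+ LckCre. All were C57BL/6, and the labels do not give the ages or sexes of the mice used here. Cells of 4 thymi were pooled per genotype, and stage 0 cells (TCRβ+, binding the CD1d tetramer, CD24+ and NK1.1-) and stage 3 cells (also CD44+, but NK1.1+ and CD24-) were sorted in 2 parallel replicas, marked with hashtag antibodies and sequenced as 1 droplet library from the 5′ end of transcripts. The sources do not say whether the 2 replicas of a genotype came from separate pools of mice, and p-values measure only the spread between these samples.

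The assignment of cells to genotypes rested on an assumption. The labels number the hashtags 1 to 8, whereas the matrix has 20 hashtag rows and nearly all hashtag UMIs lay on rows 11 to 18. Rows 11 to 18 were taken, in numeric order, for hashtags 1 to 8, which makes rows 11 and 13 the stage 0 populations Ctrl 1 and Ctrl 2, and rows 15 and 17 the stage 0 populations T-KO 1 and T-KO 2. NK1.1, one of the sort markers, is encoded by Klrb1c, which was detected in 4.12% to 4.81% of the cells on the 4 rows assigned to stage 0 and in 65.7% to 70.4% of those assigned to stage 3, so the rows alternated as this order requires. The same values do not check the genotypes. The members numbered 116, 339, 173 and 172 in Ctrl 1, Ctrl 2, T-KO 1 and T-KO 2, and they held 682990, 2085872, 1123811 and 1089244 gene UMIs. No barcode was shared between populations.

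T cells that recognise lipids on CD1d, the invariant NKT (iNKT) cells, arise in the thymus from double-positive thymocytes and carry a TCRα chain built from Trav11. Stage 0 is their first state after selection, when TCR signals are strong. Helios is induced in thymocytes by strong TCR signals, as are the orphan nuclear receptor Nr4a1 and the inhibitory receptor PD-1, which is encoded by Pdcd1. Kidins220 is a membrane scaffold protein that binds to the TCR, and loss of it in T cells was the perturbation studied. Levels are CPM, that is, a population's summed UMIs of a gene, scaled to 1000000 of its gene UMIs, and are always given in the order Ctrl 1, Ctrl 2, T-KO 1, T-KO 2.

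Some genes that follow TCR signals were higher in these cells than in stage 3 cells and others were lower, and the TCRα chain of iNKT cells was almost absent. Ikzf2, which chose the cells, stood at 1146, 1178, 1332 and 1257 CPM, against 31.2 to 37.6 CPM in the stage 3 cells. Pdcd1 stood at 552, 618, 572 and 553 CPM, against 29.5 to 128 CPM in the stage 0 cells without an Ikzf2 UMI. Itm2a, a membrane protein of selected thymocytes, reached 517, 587, 639 and 651 CPM, and it was as high in the Ikzf2-negative cells, at 452 to 1156 CPM, so it did not set the Helios+ cells apart. Nr4a1 reached 337, 468, 588 and 490.2 CPM, against 9.48 to 25.1 CPM in stage 3. In contrast, Junb, an AP-1 subunit, stood at 287, 291, 231 and 305 CPM against 782 to 1286 CPM in stage 3. The phosphatase gene Dusp2 stood at 173, 171, 219 and 190.0 CPM against 379.8 to 541 CPM. The order depended on the cells compared. In the Ikzf2-negative cells, Dusp2 was lower, at 85.9 to 151 CPM, as was Nr4a1, at 75.9 to 129 CPM, while Junb was higher, at 454 to 617 CPM. The Trav11 gene, counted together with Trav11d and Trav11n, held 1 of 508, 1 of 1475, 3 of 703 and 0 of 819 TRAV UMIs, whereas they held 28.2% to 32.5% in the 4 stage 3 populations. The share in T-KO 2 could be up to 0.449% (upper bound of the 95% Clopper-Pearson interval). Zbtb16, the factor that drives the innate program of iNKT cells, was detected in 6.03%, 5.90%, 5.78% and 1.74% of the Helios+ cells, against 0.494% of B cells. Its level was 30.7, 13.4, 18.7 and 7.34 CPM, against 65.1 to 70.3 CPM in stage 3. Since the Trav11 chain was almost absent, the sort name iNKT is not used for them, and the methods of the study describe a poor tetramer stain in this sort.

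The 80 cells just inside the limit, with 2 Ikzf2 UMIs, had 412 CPM of Itm2a and 338 CPM of Pdcd1, and the 125 cells just outside, with 1, had 453 and 192 CPM. Markers of several other cell types were present. Summed over a list of 18 myeloid and class II genes, the level was 4775, 951, 557 and 548 CPM, with Lyz2 at 0 by the rule and S100a8 also at 0. A list of 12 stage 3 genes, with Ncr1 at 0, summed to 777 to 850 CPM, and a list of 12 genes of conventional single-positive T cells to 374 to 517 CPM. Genes of B cells, with Cd79a at 0 by the rule, summed to 129 to 175 CPM. The γδ T cell gene Trdc was detected in 12.1%, 10.9%, 12.1% and 6.98% of cells, against 3.46% of the 810 B cells in the same sort, which should lack it and were deeper (medians of 4777 and 6002.5 UMIs). The populations also differed in sex. Xist, the RNA of the inactive X chromosome, was detected in 2.59%, 43.4%, 63.0% and 18.02% of cells, and a Y-linked gene in 62.1%, 36.3%, 28.9% and 52.3%, so the replicas of a genotype differed in their mix of males and females. Of the cells with either, 2.74%, 54.76%, 69.28% and 24.35% had Xist, against 4.386%, 68.44%, 79.43% and 70.33% in the stage 3 populations assigned to the same replicas, so that T-KO 2 was the replica in which the stages were far apart. Both stages were sorted from the same pooled thymi. The stage 3 populations lay at 4.386% or at 68.44% to 79.43%, so no order of the hashtag rows pairs the 24.35% with a like share. The cause of this gap was not tested. The assumed order of the hashtag rows was not tested either. Nor was the part of sex in the results below.

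The share of Helios+ cells did not separate the genotypes, because the Ctrl replicas were far apart. Of the stage 0 cells with a CD3 UMI and none of the excluded genes, 31.9%, 68.6%, 66.0% and 70.8% were Helios+ (n = 364, 494, 262 and 243 cells). Ctrl 1 was low and the other 3 populations overlapped. The mean was 50.2% ± 26.0 in Ctrl and 68.4% ± 3.36 in T-KO (SD, n = 2 each), with a two-sided exact permutation p = 0.667, where 2 against 2 cannot go below 0.333. Without Ctrl 1, the difference of T-KO minus Ctrl was -0.217 percentage points in place of 18.2. Ctrl 1 also stood apart in its transcriptome, with correlations to the other populations of 0.939 to 0.953 across genes (Pearson r of log2 CPM), against 0.963 to 0.968 among the others.

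Within the Helios+ cells, the states described by Tnfrsf9, Cd7, Kit and mitotic genes were present in both genotypes. Tnfrsf9, the costimulatory receptor 4-1BB, was detected in 41.4%, 50.4%, 56.6% and 52.3% of cells, against 2.22% of the B cells. Cd7 was detected in 27.6%, 27.7%, 28.3% and 30.2%, against 13.5% of the B cells. At least 3 UMIs of 12 genes of mitosis were found in 25.9%, 25.7%, 28.9% and 28.5%. Kit, the receptor of stem cell factor, was detected in 15.5%, 15.04%, 23.1% and 26.2% of cells, against 3.33% of the B cells. Both T-KO populations lay above both Ctrl populations for all 4 shares, each with an exact permutation p = 0.333, the smallest that this design can give. The Kit difference of 9.36 percentage points persisted at equal depth, where cells were thinned to 2000 UMIs and shallower ones left out (105, 323, 167 and 166 cells remained), and the shares were 8.57%, 7.12%, 14.97% and 15.7%. The mitotic shares became 20.95%, 16.7%, 17.4% and 18.7% when thinned, and then overlapped, as did those of Tnfrsf9, at 25.7%, 31.0%, 40.1% and 30.7%. Kit itself, at 38.1, 38.4, 61.4 and 67.0 CPM, did not pass the test across genes described next (log2 fold change 0.70 ± 0.20 SE, adjusted p = 0.499, edgeR).

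**Figure D1:**
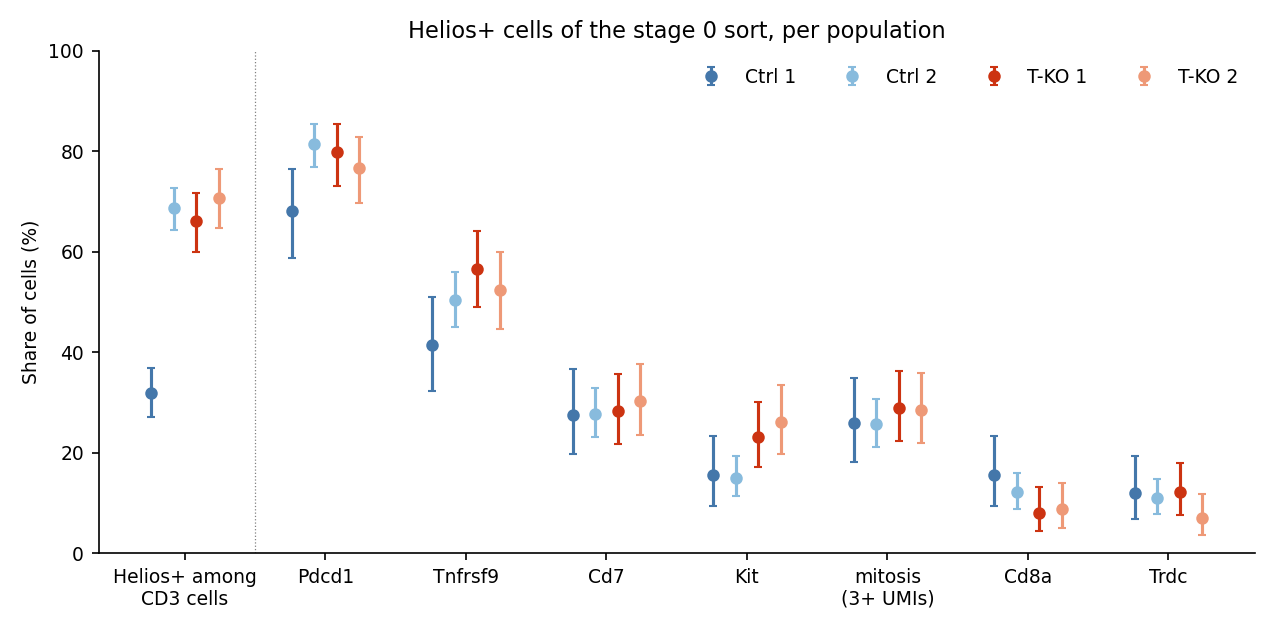
Share of cells (%) in the 4 stage 0 populations with 95% Clopper-Pearson intervals, first of Helios+ cells among those that met the other conditions, then of Helios+ cells with a UMI of the named gene or 3 UMIs of mitosis genes. Ctrl 1 is low in the first share, at 31.9% against 66.0% to 70.8%, and Kit is at 15.04% and 15.5% in Ctrl against 23.1% and 26.2% in T-KO.

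Kidins220, the targeted gene, was hardly covered. The Helios+ cells held 10, 56, 18 and 23 of its UMIs, or 14.6, 26.8, 16.02 and 21.1 CPM, and the T-KO values lay between the Ctrl values. The log2 fold change of T-KO over Ctrl was -0.35 ± 0.34 (SE, n = 2 against 2), with a 95% interval of -1.07 to 0.36 and an adjusted p = 1 (edgeR quasi-likelihood test, Benjamini-Hochberg adjustment, used for all tests across genes below). In the stage 3 cells it stood at 27.0, 34.7, 17.3 and 19.0 CPM and fell by 0.76 on the log2 scale (adjusted p = 0.0172, edgeR). The sources do not name the exons that the floxed allele loses, and reads from the 5′ end need not cover them, so the low level does not by itself check the genotype labels. The difference between the 2 effects, 0.37 on the log2 scale, did not pass the test (adjusted p = 0.874, edgeR).

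Across the transcriptome, few genes separated T-KO from Ctrl Helios+ cells. Of 8861 genes tested, 3 passed an adjusted p of 0.05 (0.0339% of those tested), of which 1 was higher in T-KO (0.0113%) and 2 were lower (0.0226%). At an unadjusted p of 0.05, 438 genes passed (4.94%), 202 higher (2.28%) and 236 lower (2.66%). The number past the adjusted threshold rested on the libraries, with 35 genes without Ctrl 1, 114 without Ctrl 2, 7 without T-KO 1 and 4 without T-KO 2. The median log2 fold change was -0.000767. The median SE was 0.233, and the 95% interval lay within a 2-fold change either way for 7010 genes (79.1%). For comparison, 310 of 10141 genes passed in the stage 3 cells (3.06%), 218 higher (2.15%) and 92 lower (0.907%). These values came from far more cells, 4642 in all, so the 2 counts do not compare the size of the effect.

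**Figure D2:**
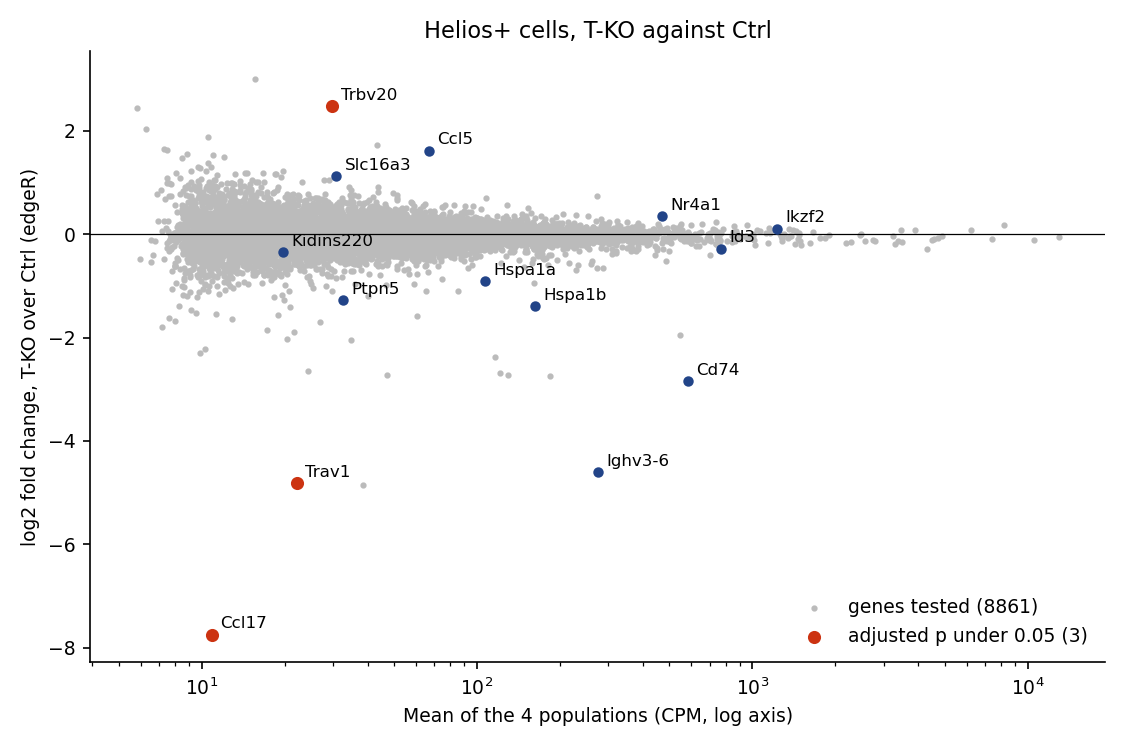
Mean level (CPM, log axis) against the log2 fold change of T-KO over Ctrl for the 8861 genes tested in Helios+ cells, each grey point 1 gene. The 3 genes past an adjusted p of 0.05 (Trav1, Ccl17 and Trbv20) are red and other named genes blue, and most genes lie close to 0.

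The 3 genes past the threshold were the TCRα variable segment Trav1, the TCRβ variable segment Trbv20 and the chemokine gene Ccl17, which dendritic cells are known to express. Trav1 was at 36, 69, 2 and 1 UMIs, or 52.7, 33.1, 1.78 and 0.918 CPM, with both Ctrl populations above both T-KO populations. It fell by 4.82 ± 0.53 (SE) on the log2 scale (adjusted p = 0.00168, edgeR). Those UMIs came from 3, 8, 2 and 1 cells, and the top cell held 30 of the 36 UMIs in Ctrl 1 and 25 of the 69 in Ctrl 2. By cells, Trav1 was used by 3 of 90, 8 of 280, 2 of 135 and 1 of 146 cells with any TRAV UMI, or 3.33%, 2.86%, 1.48% and 0.685%, with intervals that overlap between genotypes (0.693% to 9.43% in Ctrl 1 and 0.0173% to 3.76% in T-KO 2). In the stage 3 cells Trav1 had 15, 24, 0 and 13 UMIs. The test weighs UMIs and not cells, and the 2 top cells were deep, with 16596 and 15104 gene UMIs against population medians of 4103.5 and 4768.

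Trbv20 was at 10, 13, 65 and 44 UMIs, or 14.6, 6.23, 57.8 and 40.4 CPM, and both T-KO populations lay above both Ctrl populations. It rose by 2.48 ± 0.35 (SE) on the log2 scale (adjusted p = 0.0132, edgeR). The UMIs came from 2, 9, 12 and 4 cells, and in T-KO 2 the top cell held 33 of 44. By cells, it was used by 1.77%, 2.77%, 7.27% and 2.40% of those with any TRBV UMI, so T-KO 1 was above both Ctrl populations and T-KO 2 lay between them. Without T-KO 1 the gene no longer passed (log2 fold change 2.16, adjusted p = 0.180, edgeR), and with DESeq2 its adjusted p was 0.0564. In the stage 3 cells, Trbv20 had 10, 33, 0 and 27 UMIs.

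The exons that encode the variable part of both segments are shown because their UMIs carried most of the calls. They were read from the GRCm38 genome, Trav1 at chr14:52428594-52428876 on the plus strand, whole, and Trbv20 at chr6:41188674-41188973 on the plus strand, the first 300 of 304 bases.
Trav1: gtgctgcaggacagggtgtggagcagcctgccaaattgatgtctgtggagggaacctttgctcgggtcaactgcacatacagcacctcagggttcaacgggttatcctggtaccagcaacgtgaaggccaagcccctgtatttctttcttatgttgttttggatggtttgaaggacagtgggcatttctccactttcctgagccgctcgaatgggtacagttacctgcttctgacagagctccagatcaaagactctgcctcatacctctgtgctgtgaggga
Trbv20: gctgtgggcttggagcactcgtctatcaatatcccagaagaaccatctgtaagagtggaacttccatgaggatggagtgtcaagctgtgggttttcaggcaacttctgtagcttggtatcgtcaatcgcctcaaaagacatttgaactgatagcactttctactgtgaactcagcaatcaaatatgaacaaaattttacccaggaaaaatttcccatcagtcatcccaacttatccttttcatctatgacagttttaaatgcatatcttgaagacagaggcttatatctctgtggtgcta
No close copy of either segment was found among the other variable exons. The nearest other TRAV exon to Trav1, Trav7n-6, was 58.7% identical, and the nearest TRBV exon to Trbv20, Trbv30, was 60.9% identical.

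Among the other variable segments, 24 of 128 TRAV and 21 of 35 TRBV genes passed the filter on low counts. Apart from Trav1 and Trbv20 none passed the adjusted threshold, and 7 TRAV and 10 TRBV segments in all were at an unadjusted p under 0.05, against 4.94% of all genes tested. Trav8d-2 stood at 11.7, 23.5, 31.1 and 107 CPM, with 39 of its 117 UMIs in T-KO 2 from 1 cell (log2 fold change 1.73 ± 0.45 SE, adjusted p = 0.458, edgeR). Trbv1 held 12.7%, 9.25%, 4.15% and 7.32% of TRBV UMIs.

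Ccl17 had 16 and 42 UMIs in Ctrl 1 and Ctrl 2, each set in 1 cell, and 0 in both T-KO populations (adjusted p = 0.00491, edgeR). A floor of 3 counts over both T-KO populations together is 1.36 CPM. Against it, the summed UMIs were at least 15.5-fold lower in T-KO than the 20.9 CPM of the Ctrl populations. By cells, Ccl17 was found in 1 of 116 and 1 of 339 Ctrl cells and in 0 of 173 and 0 of 172 T-KO cells. The bound therefore covers these UMIs and sets no least difference between the genotypes. The 2 cells with Ccl17 held the most class II UMIs of their populations. They had 922 and 646 UMIs of H2-Aa, H2-Ab1, H2-Eb1 and Cd74, the genes that present peptides to CD4 T cells, or 4.36% and 6.63% of all their UMIs. Both cells also carried CD3 UMIs (25 and 3) and Ikzf2 UMIs (2 and 6). In the T-KO populations no cell held more than 6 class II UMIs.

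The class II genes themselves did not pass the adjusted threshold, though all 4 were at an unadjusted p under 0.05. Cd74 stood at 1697, 348, 140 and 147 CPM (log2 fold change -2.85 ± 0.48 SE, adjusted p = 0.0577, edgeR). Leaving out the 4 cells in which class II genes held over 0.5% of UMIs, 3 in Ctrl 1 and 1 in Ctrl 2, moved its log2 fold change to -0.33 (adjusted p = 0.910, edgeR), a comparison added after the data were seen. Single cells also set the level of immunoglobulin genes. Ighv3-6 stood at 29.3, 1024, 18.7 and 28.5 CPM, and 2095 of the 2136 UMIs in Ctrl 2 came from 1 cell, which was not among the cells rich in class II UMIs. Ccl5, a chemokine of effector T and NK cells, was at 38.1, 28.8, 36.5 and 164 CPM (adjusted p = 0.574, edgeR), with 145 of the 179 UMIs of T-KO 2 in 1 cell.

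The inducible chaperones Hspa1a and Hspa1b, which encode Hsp70 proteins made under stress, had low T-KO values that were spread over many cells. Hspa1a was at 157, 123, 82.8 and 66.1 CPM, from 107, 257, 93 and 72 UMIs, and both T-KO populations lay below both Ctrl populations. Its log2 fold change was -0.91 ± 0.17 (SE), with an unadjusted p = 9.91e-05 and an adjusted p = 0.124 (edgeR), so it did not pass. Hspa1b was at 315, 159, 126 and 49.6 CPM, with replicas far apart in both genotypes, and a log2 fold change of -1.40 ± 0.33 (SE, adjusted p = 0.289, edgeR). The UMIs of Hspa1a were spread over 35, 84, 42 and 30 cells, with at most 29 in a cell. In the other cells of the experiment both genes fell. In the stage 3 cells Hspa1a stood at 590.0, 754, 136 and 234 CPM and fell by 1.81 on the log2 scale (adjusted p = 1.45e-07, edgeR), and in the Ikzf2-negative cells of the same stage 0 sort it stood at 821, 648, 300.5 and 303 CPM and fell by 1.28 (adjusted p = 0.0258, edgeR). Hspa1b fell by 1.61 in stage 3 (adjusted p = 8.55e-08, edgeR) and by 1.39 in the Ikzf2-negative cells (adjusted p = 0.0258, edgeR). The difference between the effects in Helios+ and stage 3 cells did not pass its test (0.92 ± 0.31 SE on the log2 scale, adjusted p = 0.386, edgeR), and neither did that between Helios+ and Ikzf2-negative cells (0.34, adjusted p = 0.938, edgeR). Helios+ cells had the lowest Hspa1a levels of the 3 groups in each population.

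The regions just upstream of both Hsp70 genes are shown because the 2 genes had their levels side by side in all 3 groups of cells and are near copies of each other. Each run is the 250 bases before the RefSeq start in GRCm38.p6, Hspa1a at chr17:34972157-34972406 and Hspa1b at chr17:34959239-34959488, both on the minus strand and printed 5′ to 3′ along the gene. Capitals mark a match to GAANNTTC, the paired form of the heat shock element, searched with TTCNNGAA on the plus and minus strands.
Hspa1a: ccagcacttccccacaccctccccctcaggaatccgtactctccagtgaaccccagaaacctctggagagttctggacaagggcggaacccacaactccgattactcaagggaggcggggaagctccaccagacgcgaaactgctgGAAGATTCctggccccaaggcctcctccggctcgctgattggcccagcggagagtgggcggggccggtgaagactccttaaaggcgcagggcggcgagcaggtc
Hspa1b: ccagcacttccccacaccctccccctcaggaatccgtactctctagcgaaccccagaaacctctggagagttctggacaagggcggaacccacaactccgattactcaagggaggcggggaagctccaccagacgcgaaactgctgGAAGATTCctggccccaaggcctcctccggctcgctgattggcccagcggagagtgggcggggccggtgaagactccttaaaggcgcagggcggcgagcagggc
Both runs held 1 match, beginning 104 bases before the start, and either form was present in 12.8% of 32851 RefSeq promoters searched over the same number of bases. The runs differed at 3 of 250 bases. The coding sequences of 1923 and 1926 bases were 99.5% identical, and the first 500 transcript bases, the part that 5′ reads cover, differed by 4 edits, so the division of reads between the 2 genes is uncertain.

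Of 18 heat shock genes, 16 were tested, none passed, and 3 were at an unadjusted p under 0.05, all lower (2.66% of all genes tested were lower at that p). The third was Dnajb1, the Hsp40 partner of Hsp70, at 204, 184, 176 and 128 CPM (log2 fold change -0.38 ± 0.16 SE, adjusted p = 0.967, edgeR). The list had a median log2 fold change of -0.11. Of the constitutive chaperones, Hspa8 stood at 3099.6, 2632, 3664 and 1729 CPM, with the 2 T-KO values the highest and the lowest, and Hsp90ab1 at 3612, 3864, 4309 and 3859.6 CPM.

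**Figure D3:**
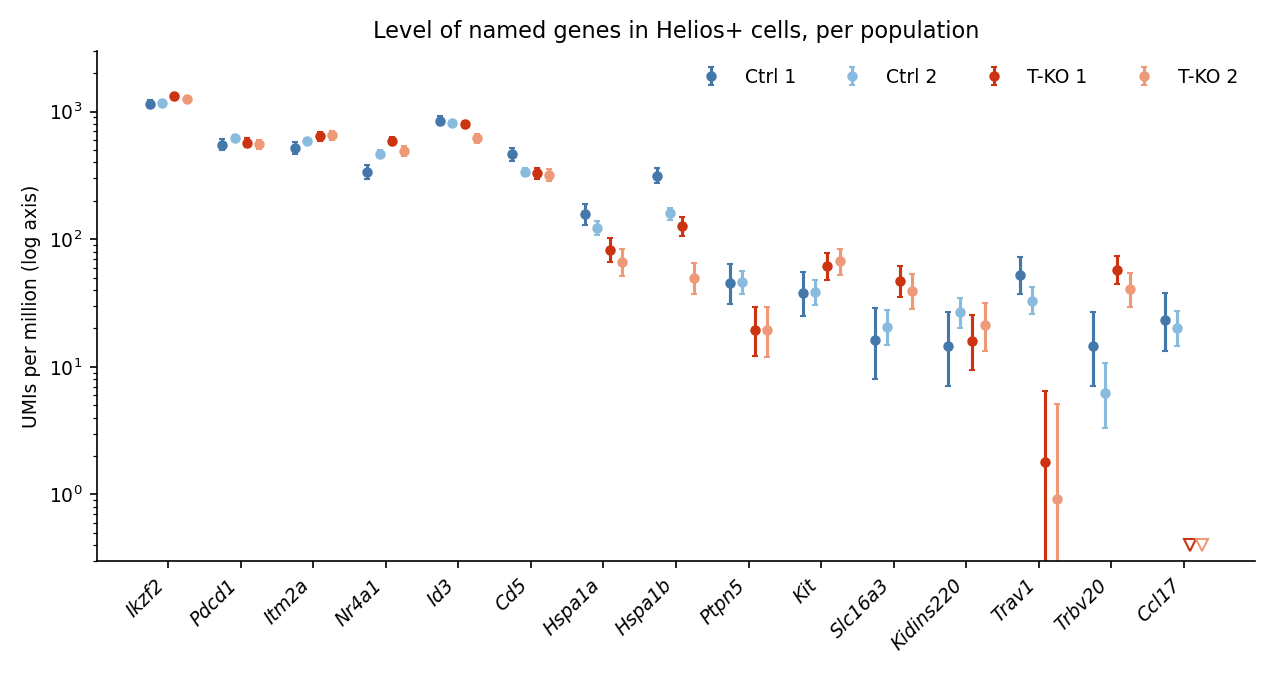
Level (CPM, log axis) of 15 named genes in each of the 4 populations of Helios+ cells, with exact 95% Poisson intervals that cover counting error only and open triangles for a count of 0. For all but Pdcd1 and Kidins220, both T-KO values lie on one side of both Ctrl values, as they do for 34.6% of all genes tested. The gaps are widest for Trav1, Trbv20 and Ccl17, while Ikzf2, Pdcd1 and Itm2a are close in all 4.

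The rest of the genes with the smallest p did not pass, and are given for their levels. Ptpn5, a tyrosine phosphatase that acts on MAP kinases, stood at 45.4, 46.0, 19.6 and 19.3 CPM (log2 fold change -1.28 ± 0.25 SE, adjusted p = 0.124, edgeR). It was near 0 in the Ikzf2-negative cells, at 0 to 2.95 CPM, and at 16.8 to 27.1 CPM in stage 3. Klra1, an Ly49 receptor, stood at 63.0, 22.5, 4.45 and 7.34 CPM, with 26 of 43 UMIs in Ctrl 1 from 1 cell. Slc16a3, a lactate exporter, stood at 16.1, 20.6, 47.2 and 39.5 CPM (log2 fold change 1.12 ± 0.26 SE, adjusted p = 0.284, edgeR), from 32 and 35 cells in the T-KO populations. Hdac9, a histone deacetylase, stood at 30.7, 38.4, 67.6 and 61.5 CPM (log2 fold change 0.80 ± 0.20 SE, adjusted p = 0.425, edgeR). Values that did not overlap between the genotypes were common, at 34.6% of all genes tested, and both T-KO values lay below both Ctrl values in 13.1%.

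Of the genes that follow TCR signal strength none passed the test, and none of the lists below held a gene past the adjusted threshold other than the TCR segments. Of 16 factors induced by the TCR, 14 were tested, with a median log2 fold change of -0.002. Nr4a1 had a log2 fold change of 0.36 ± 0.14 (SE, adjusted p = 0.937, edgeR). Egr2, a TCR-induced factor that iNKT cells require, stood at 58.6, 55.6, 73.9 and 50.5 CPM. Id3, an inhibitor of E proteins, stood at 846, 810.2, 794 and 618 CPM (log2 fold change -0.28 ± 0.11 SE, adjusted p = 0.960, edgeR), with T-KO 2 alone low. Cd5, a receptor whose level follows TCR signal strength, stood at 463, 338, 328 and 319 CPM (log2 fold change -0.33 ± 0.14 SE, adjusted p = 0.986, edgeR), with Ctrl 1 alone high. Of 16 receptors that respond to TCR signals, 15 were tested, with a median of 0.01.

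Nor did genes of the pathway from the TCR inward pass. All 27 genes of the TCR complex and its proximal kinases and adaptors were tested, 3 were at an unadjusted p under 0.05, all lower (2.66% of all genes were), and the median was -0.08. Lck, the first kinase of the pathway, stood at 515, 473, 417 and 403 CPM (log2 fold change -0.31 ± 0.11 SE, adjusted p = 0.768, edgeR), and Zap70, the next, at 278, 260, 270 and 276 CPM. Cd8a stood at 84.9, 31.6, 19.6 and 24.8 CPM (adjusted p = 0.698, edgeR). Of the 12 tested feedback genes of the ERK pathway, only Dusp6, an ERK phosphatase, was lower at an unadjusted p under 0.05, against 2.66% of all genes. It stood at 14.6, 17.7, 10.7 and 5.51 CPM (log2 fold change -1.08 ± 0.42 SE, adjusted p = 0.926, edgeR). The 7 tested AP-1 genes had a median of -0.13, and the 16 NF-κB genes one of -0.06. Fos, at 160, 196, 61.4 and 178 CPM, was low in T-KO 1 alone.

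The lists for lineage, survival and proliferation held 0 to 3 genes each at an unadjusted p under 0.05 (4.94% of all genes tested were). Of the 14 tested genes of the iNKT lineage, 3 were lower at that p and none higher (2.66% and 2.28% of all genes tested were). They were Slamf6, a homophilic receptor needed for iNKT selection, at 217, 203, 169 and 156 CPM (log2 fold change -0.41 ± 0.13 SE, adjusted p = 0.661, edgeR), the T cell factor Gata3, at 86.4, 60.9, 56.9 and 46.8 CPM, and Lef1. Of the 15 tested Bcl2 family and death genes, the survival factor Bcl2 stood at 104, 139, 164 and 177 CPM (log2 fold change 0.40 ± 0.15 SE, adjusted p = 0.920, edgeR), and its relative Bcl2a1b at 90.8, 25.4, 16.02 and 7.34 CPM, with 45 of 62 UMIs in Ctrl 1 from 1 cell. Among the 5 Ikaros factors, Ikzf3, which encodes Aiolos, stood at 284, 327, 354 and 318 CPM, and its 95% interval of -0.18 to 0.34 on the log2 scale held 0. Among the 18 tested genes of maturation and egress, Sox4, a factor of immature thymocytes, stood at 627, 711, 830 and 794 CPM (log2 fold change 0.23 ± 0.10 SE, adjusted p = 0.986, edgeR), and Lef1, an HMG factor, at 783, 794, 730 and 511 CPM (-0.39 ± 0.13 SE, adjusted p = 0.698, edgeR). The 20 genes of DNA replication had a median of 0.07 and the 12 of mitosis one of 0.002. Mki67 stood at 234, 205, 303 and 271 CPM (log2 fold change 0.35 ± 0.13 SE, adjusted p = 0.829, edgeR). The value was 0.72 in cells of at most 4000 genes (adjusted p = 0.0146, edgeR) and -1.11 in the cells left when cycling cells were taken out (adjusted p = 0.817, edgeR). Mki67 is itself among the 12 mitosis genes by which cycling cells were removed. The value of -1.11 therefore cannot show whether the Mki67 difference depends on cycling. The interferon list had negative log2 fold changes in 12 of 13 tested genes, against 4442 of all 8861, with a median of -0.20, and 1 of them, Isg15, was at an unadjusted p under 0.05 (2.66% of all genes were lower at that p). The 11 mitochondrially coded genes had log2 fold changes of -0.18 to -0.04, and 1 was lower at an unadjusted p under 0.05 (2.66% of all genes were). Foxp3, the factor of regulatory T cells, was detected in 11 of 173 T-KO 1 cells (6.36%), in 2 of 339 Ctrl 2 cells (0.59%) and in none of the 116 Ctrl 1 and 172 T-KO 2 cells, against 0.617% of B cells. A count of 0 allows shares of cells with a Foxp3 UMI of up to 3.13% and 2.12% (Clopper-Pearson), which are limits on detection and not on expression.

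**Figure D4:**
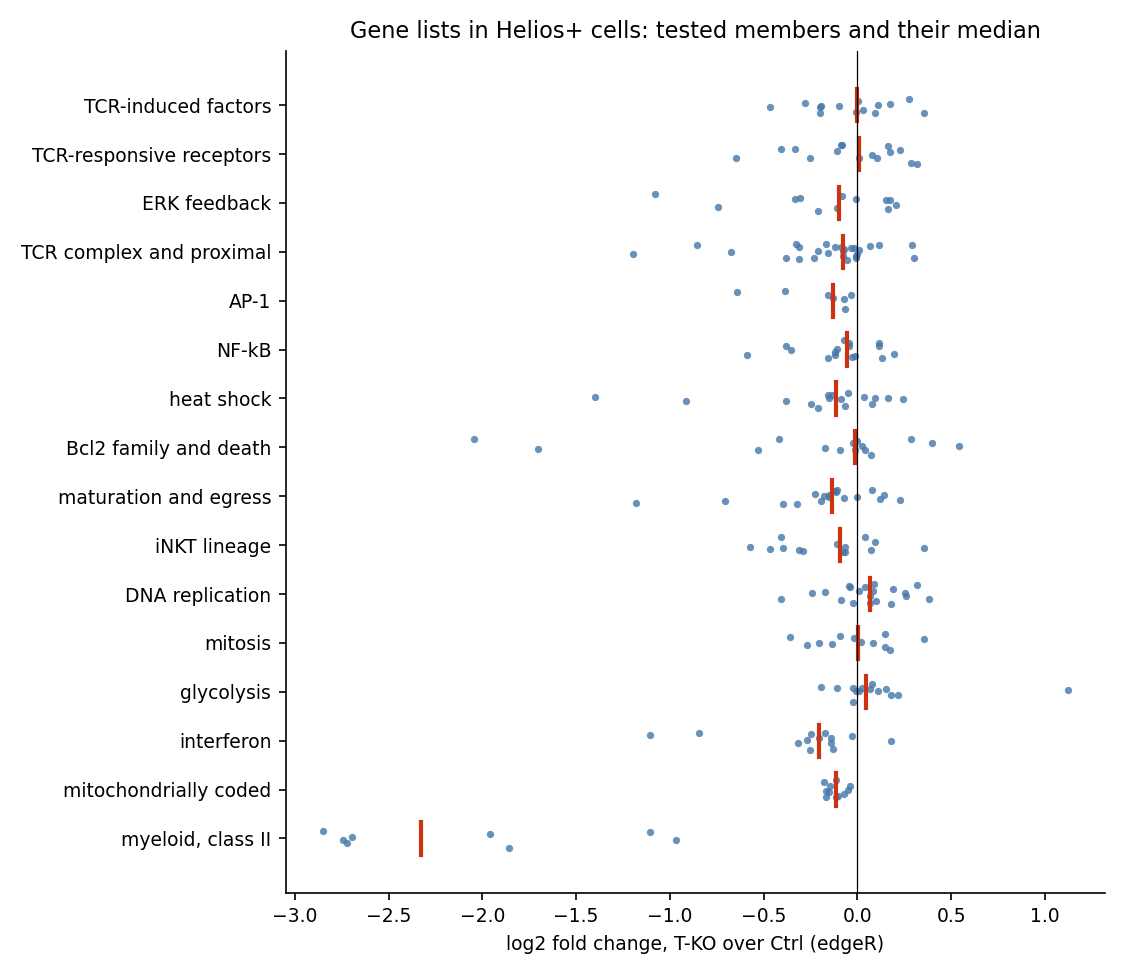
Log2 fold change of T-KO over Ctrl for the tested members of 16 gene lists in Helios+ cells, each point 1 gene and each red bar the median of its list. Medians lie between -0.20 and 0.07 except for the myeloid and class II list, at -2.33.

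For 16 of the genes that the study names for the genotype, the values in Helios+ cells are given beside those of stage 3. The study chose these genes on the same samples, so their direction is not independent evidence. All 16 were tested, and none passed in the Helios+ cells. There 8 were at an unadjusted p under 0.05 (2 higher, 6 lower), against 4.94% of all genes tested. In the stage 3 cells 14 passed (4 higher, 10 lower), as 3.06% of all genes tested there did. Of 4 more that it names for stage 3, the phosphatase gene Dusp1 fell there by 0.77 on the log2 scale (adjusted p = 0.003395, edgeR), while Gpr171, Tmem173 and Slfn2 rose by 0.66, 0.51 and 0.36. In Helios+ cells these 4 had log2 fold changes of -0.01, 0.47, 0.11 and -0.02, none past the threshold. For stage 0 the study names Hspa1b, described above, Resf1 and 2410006H16Rik. It tested single cells of its clustered stage 0 set. Here UMIs were summed per population over cells chosen by Ikzf2, so the adjusted p-values are not on a par with the calls of the study. Resf1, a regulator of silenced retroelements, stood at 79.1, 71.0, 101 and 107 CPM (log2 fold change 0.46 ± 0.16 SE, adjusted p = 0.753, edgeR). The transcript 2410006H16Rik stood at 331, 356, 281 and 266 CPM (log2 fold change -0.38 ± 0.12 SE, adjusted p = 0.632, edgeR). Both had T-KO values on one side of the Ctrl values. Of those named for stage 3, Ikzf3 fell there by 0.39 on the log2 scale (adjusted p = 0.00714, edgeR), Klf3, a Krüppel-like repressor, by 0.73 (adjusted p = 4.16e-05, edgeR) and Jun, an AP-1 subunit, by 0.90 (adjusted p = 0.000209, edgeR), against log2 fold changes of 0.08, 0.18 and -0.38 in Helios+ cells.

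Whether the genotype acted differently in Helios+ and stage 3 cells was tested as an interaction over 10124 genes, and 14 passed (0.138%). Of these, 13 (0.128%) had a lower effect of T-KO in Helios+ cells. In stage 3 these 13 had passed the threshold in the upward direction, as 2.15% of all genes tested there did. The interaction was fitted on the same stage 3 counts, so the stage 3 calls are not separate evidence. The count was 28 without Ctrl 1, 113 without Ctrl 2, 7 without T-KO 1 and 4 without T-KO 2. The strongest was Nrgn, a calmodulin-binding protein, at 1362, 1626, 1396 and 1330 CPM in Helios+ cells and at 28.4, 25.0, 65.3 and 78.9 CPM in stage 3, with a difference of the effects of -1.64 ± 0.15 (SE, adjusted p = 6.23e-05, edgeR). In stage 3 it rose by 1.47 on the log2 scale (adjusted p = 4.28e-07, edgeR). The galectin gene Lgals1 was at 337, 267, 284 and 254 CPM in Helios+ cells and rose in stage 3 by 0.89 (adjusted p = 4.28e-07, edgeR). Of the genes of cell division, Cks1b was flat at 168, 162, 167 and 168 CPM in Helios+ cells and rose in stage 3 by 0.98 (adjusted p = 0.000135, edgeR), and Cenpa was at 186, 184, 148 and 151 CPM and rose in stage 3 by 0.80 (adjusted p = 0.000409, edgeR). The chemokine receptor gene Ccr10 stood at 36.6, 21.1, 6.23 and 11.9 CPM in Helios+ cells against a stage 3 rise by 1.90 (difference -3.44 ± 0.47 SE, adjusted p = 0.00523, edgeR). Of the genes named by the study, Id3 passed, with a difference of -0.92 ± 0.16 (SE, adjusted p = 0.0364, edgeR). The gene with a higher effect in Helios+ cells (0.00988%) was Klra9, an Ly49 receptor at 8.78 to 12.9 CPM in them, which fell by 1.32 in stage 3 (adjusted p = 1.48e-10, edgeR).

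**Figure D5:**
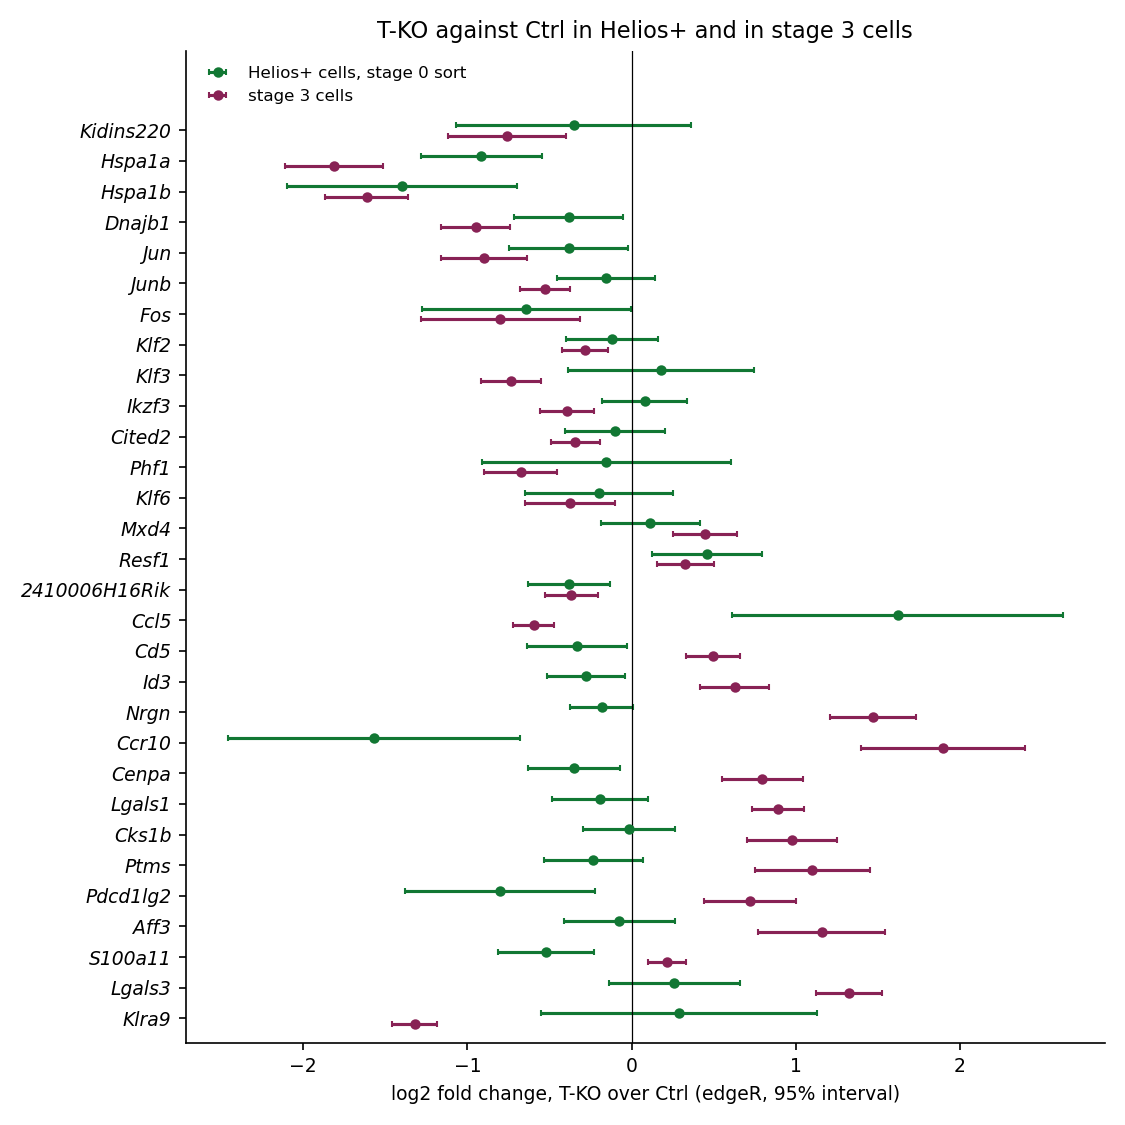
Log2 fold change of T-KO over Ctrl with 95% intervals (edgeR) in Helios+ cells of the stage 0 sort (green) and in stage 3 cells (purple), for Kidins220, 3 heat shock genes, further genes named by the study and genes with a difference between both effects. The intervals of Hspa1a, Hspa1b, Dnajb1, Jun, Fos and 2410006H16Rik lie below 0 in both. In contrast, Nrgn, Lgals1, Cks1b and Aff3 lie above 0 in stage 3 and near or below 0 in Helios+ cells.

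Against the 438 Ikzf2-negative cells of the stage 0 sort, the effect of the genotype differed for 3 of 9263 genes (0.0324%). They were Ccl17, H2-Ab1 and Gyg, a primer of glycogen synthesis, and the count was 8 to 65 without 1 of the populations. Gyg was flat in Helios+ cells at 117, 115, 114 and 122 CPM, and it stood at 77.7, 90.7, 218 and 441 CPM in the Ikzf2-negative cells, where it rose by 1.94 on the log2 scale (adjusted p = 0.0258, edgeR). The Ikzf2-negative cells were 211, 114, 67 and 46 per population and held Cd74 at 10531 to 18388 CPM, so RNA of antigen-presenting cells was abundant among them, and its part in these differences was not tested. In these cells 8 of 6791 genes passed (0.118%), Hspa1a and Hspa1b among them.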

How the data were processed

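The deposited matrix held raw UMI counts of 32285 genes and 20 hashtag rows, made by the authors with Cell Ranger 6.0.0 and the mm10 reference. The counts were used unscaled. Ribosomal and Gm genes were left out of the tests, as in the study. UMIs of the members were summed per hashtag row, and T-KO was compared with Ctrl (2 against 2) by the edgeR 4.0.16 quasi-likelihood test in R 4.3.3, with TMM factors, filterByExpr and Benjamini-Hochberg adjustment. Differences between groups of cells were tested as interaction terms. DESeq2 1.42.0, other filters, other cell limits and thinned cells served as alternatives. On data simulated with the same spread for every gene, the edgeR test of T-KO against Ctrl recovered 67% of 100 genes changed 2-fold. It recovered 98% of 100 changed 4-fold and called 8 unchanged genes. DESeq2 recovered 35% and 76%. The simulated data held no single cells rich in 1 gene and no population that stood apart, so these shares need not hold for the real data. Intervals cover counting error only, and doublets were limited by the hashtag share of 80% and not otherwise called. The members and lists were chosen with earlier results of these data known. The named genes were Kidins220, the genes of the rule, those named by the study, those past the threshold, up to 10 with the smallest p in each direction, up to 4 per list, up to 10 per interaction and markers of other cells. Hspa8, Hsp90ab1, Zap70, Egr2, Dusp1, Gpr171, Tmem173, Slfn2 and Trbv1 were named after their values were seen.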

Additional observations from a re-analysis of the deposited data

Results flagged for a closer look

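For 14 genes the effect of T-KO in Helios+ cells differed from that in stage 3 cells by the interaction test (edgeR). On the log2 scale the Helios+ effect minus the stage 3 effect was -1.644 for Nrgn, -3.438 for Ccr10, -1.152 for Cenpa, -1.078 for Lgals1, -0.9916 for Cks1b and -1.355 for Ptms. It was -4.31 for the TCRα segment Trav21-dv12 and -0.9194 for Id3. It was -1.518 for Pdcd1lg2, which encodes a ligand of PD-1, -1.243 for Aff3, -1.273 for A430093F15Rik, -0.7297 for S100a11 and -1.059 for the galectin gene Lgals3. For Klra9 it was positive, at 1.601.

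Against the Ikzf2-negative cells of the stage 0 sort, 3 genes differed in the effect of T-KO. The difference was -9.551 for Ccl17, a fitted value that depends on a count of 0 in both T-KO populations of Helios+ cells and is no bound. It was -2.38 for H2-Ab1 and -1.908 for Gyg.

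Of the 12 hashtag rows outside those in use, row 1 held 12255 UMIs and row 4 held 11854, while the other 10 held 12 to 599. The 8 rows in use held 1352182 to 7856856.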

How the results depend on the processing

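The count of genes past the adjusted threshold in Helios+ cells, 3, was 0 with at least 20 counts in each population (edgeR, 5425 tested, 253 at an unadjusted p under 0.05), 5 with ribosomal and Gm genes kept, 11 with Ikzf2 at 1 UMI or more, 8 with 3 or more, 1 with 90% of 20 hashtag UMIs, 23 in cells of at most 4000 genes, 5 in noncycling cells, 14 in thinned cells and 8 without the cells rich in class II UMIs, a choice made after seeing the data. None of the 3 genes was among those past the threshold in cells of at most 4000 genes, noncycling cells or thinned cells. DESeq2 gave 2 genes, and 68 at an unadjusted p under 0.05. Leaving out 1 population gave 4 to 114 genes, with the lone sample assumed to vary like the others. With the replicate number as a block the count was 24, but the numbers did not pair the samples (correlation of deviations 0.0191). For the difference from stage 3, 14 genes, the count was 76 with a filter of 1 count in 2 populations, 22 with the replicate block and 4 to 113 without 1 population. For the difference from Ikzf2-negative cells, 3 genes, it was 81 with that filter and 8 to 65 without 1 population. The cause was not tested.

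The difference in the Helios+ share ran from -0.2173 to 36.54 percentage points without 1 population. All shifts stayed below the pooled SD of the replicas, 18.53 points. With a Ctrl population left out, the gap between the Ctrl replicas sets both the shift and most of that SD. The SD therefore does not measure how stable the difference is. The Kit difference was 7.47 points in thinned cells. The mitotic difference was 3.231 with Ikzf2 at 1 UMI or more, 4.853 with the stricter hashtag limit, 2.512 with 500 genes and -0.8153 in thinned cells. The Cd7 difference was 0.2143, 3.343 and 2.792 under the first 3 of these, in turn. Over 140 named genes, 2436 alternative values stayed on their side of the threshold, 105 came to pass it and 7 no longer did, and 85 values of 46 genes changed sign without passing in either setting. Among them Trav1 passed in 15 of 15 alternatives in which it was tested, out of 19. It was not tested with at least 20 counts in each population, in cells of at most 4000 genes, in noncycling cells or in thinned cells. Its top cells in Ctrl 1 and Ctrl 2 had 4446 and 4320 genes. The 15 passes therefore do not show that the call holds without deep cells. Trbv20 passed in 10 of 17. Hspa1a and Hspa1b, not past the threshold above, passed in 7 of 19 each, with negative log2 fold changes in all. With 116 to 339 cells in a population, genes with few UMIs had wide intervals.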
